A study of Sus scrofa with 12 samples.

Results

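The collagen genes of the pig ovary were taken as every row of the gene table whose symbol is COL, a type number, A and a chain number. This rule found 43 of the 29884 genes of the table, of which 11 encode chains of fibrillar collagens (types I, II, III, V, XI, XXIV and XXVII), 9 encode chains of network collagens (types IV, VIII and X) and 23 encode chains of all other types. COL6A1, a chain of type VI collagen, was not analysed here. Left ovaries of 6 sows were compared, 3 with small litter size (SLS, ovaries ZD2, ZD3 and ZD12) and 3 with large litter size (LLS, ovaries ZD5, ZD7 and ZD8). Mean litters were 8.48 ± 0.53 piglets in SLS and 16.19 ± 0.43 piglets in LLS, as the series' design gives them. All 6 sows were slaughtered 4 days after farrowing for the 4th time, came from the same commercial herd and were given no treatment that the labels name. Whole ovaries were used, so every value mixes all cell types of the organ, and fewer cells of a type cannot be told apart from less RNA per cell.

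A collagen molecule is a rope of chains wound around each other, and each COL gene encodes a chain. Fibrillar collagens line up into the fibrils that give the ovarian capsule, the stroma and the follicle wall their strength. Network collagens form sheets, of which type IV collagen is the frame of the basement membranes under follicle epithelium and around vessels. The other types decorate fibrils (FACIT collagens), form beaded filaments, anchor basement membranes, or end in fragments that act on vessels (multiplexins). The ovary remodels its collagen in every cycle, when follicles grow and rupture and when the corpus luteum forms and regresses.

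Expression was given as FPKM, reads per kilobase of transcript and scaled to the number of reads of the library. The 6 libraries held between 32272803 (ZD8) and 60903268 (ZD2) reads on genes, so that 3 reads on a transcript of 1 kb correspond to between 0.0493 and 0.0930 FPKM. ZD8 stood apart across the whole table, with the highest value of the 6 ovaries in 44.6% and the lowest in 26.3% of the 12260 genes that reached 1 FPKM in at least 3 libraries. The summed FPKM of 7 luteal markers, among them the steroid genes STAR and HSD3B1, reached only 124 in ZD8, where the other 5 ovaries had from 9167 to 12190. Results that rest on ZD8 are therefore given with and without it.

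Of the 43 collagen genes, 28 passed the filter and were tested (8 fibrillar, 6 network and 14 other), and 17 had a mean of at least 10 FPKM over the 6 ovaries. Another 14 had a mean under 1 FPKM, and COL10A1, the network collagen of growth plate cartilage, had 0 reads in every library. Collagen genes took between 1.65% (ZD8) and 6.42% (ZD2) of all reads on genes. In 5 of the 6 ovaries COL3A1 was among the 19 genes with the highest FPKM of the whole table, and in ZD8 it was at place 92.

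**Figure D1:**
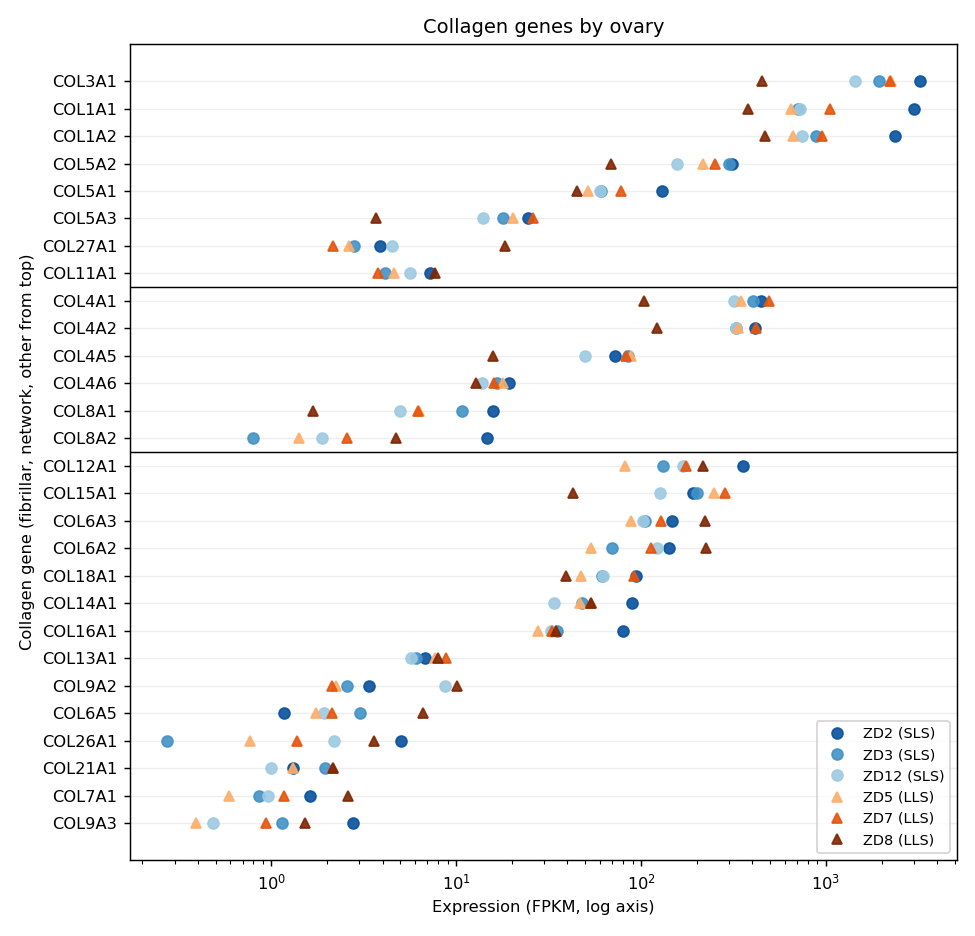
FPKM on a log axis of the 28 collagen genes that passed the filter, with 1 point for each ovary (circles SLS, triangles LLS) and lines between fibrillar, network and other collagens. COL3A1, COL1A1 and COL1A2 lie at the top of the scale, and the dark triangle of ZD8 lies far from the rest for COL3A1, COL4A1, COL15A1 and, on the opposite side, COL27A1.

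The 3 most abundant members were the chains of the main fibrils. COL3A1, the chain of type III collagen in the fine fibrils of soft organs, had 3222, 1940 and 1430 FPKM in ZD2, ZD3 and ZD12 and 2262, 2213 and 451 FPKM in ZD5, ZD7 and ZD8. Its 5 other ovaries were at least 3.17-fold above ZD8, and the groups overlapped. COL1A1, the α1 chain of type I collagen, had 3002, 708 and 721 FPKM in SLS and 650, 1057 and 377 FPKM in LLS. Here ZD2 was 2.84-fold above the next ovary, while the other 5 lay within a range from 377 to 1057 FPKM. COL1A2, its α2 partner, had 2378, 881 and 738 FPKM in SLS and 666, 951 and 466 FPKM in LLS. Both chains of type I collagen thus had their highest value in ZD2 and their lowest in ZD8. These values rest on between 69435 and 1122465 reads per gene and library, so counting error is small beside the spread between ovaries.

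The chains of type V collagen, which sit inside type I fibrils and limit their width, were less abundant. COL5A2 had 310, 298 and 156 FPKM in SLS and 216, 251 and 69.0 FPKM in LLS. COL5A1 had 131, 60.7 and 59.6 FPKM in SLS and 51.6, 78.1 and 45.1 FPKM in LLS. COL5A3 was lower in ZD8 (3.69 FPKM) than in any of the other 5 ovaries (13.97 to 25.95 FPKM). COL27A1, a fibrillar chain best known from cartilage, showed the opposite order, with 18.3 FPKM in ZD8 and between 2.15 and 4.50 FPKM elsewhere. COL11A1 ranged only from 3.79 to 7.70 FPKM. COL2A1, the main chain of cartilage fibrils, did not pass the filter and had 3.36 FPKM in ZD8 against at most 0.574 FPKM elsewhere, on 571 and between 8 and 160 reads. The 4 cartilage markers ACAN, COMP, MATN3 and CNMD summed to 0.126 FPKM in ZD8, below the range of 0.160 to 1.04 FPKM of the remaining ovaries, although ACAN was highest in ZD8 at 0.0525 FPKM. COL24A1 stayed under 1 FPKM in all 6 ovaries, and COL11A2 had at most 4 reads in a library.

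Type IV collagen led the network class. COL4A1 had 448, 402 and 320 FPKM in SLS and 349, 494 and 103 FPKM in LLS, and COL4A2 had 412, 328 and 327 FPKM in SLS and 337, 421 and 123 FPKM in LLS. Without ZD8, COL4A2 spanned a range of only 1.29-fold and COL4A1 of 1.55-fold, whereas COL1A1 still spanned 4.62-fold. COL4A5, a chain of a second type IV network, lay between 49.7 and 88.1 FPKM in 5 ovaries and at 15.9 FPKM in ZD8. Its partner COL4A6 had the narrowest range in fold of all tested collagens over the 6 ovaries, from 12.8 to 19.2 FPKM, and ZD8 was again the lowest. COL4A3 and COL4A4, the chains of the network known from kidney and lung, did not pass the filter and had their highest values in ZD8, 2.39 and 3.51 FPKM, against at most 0.519 and 1.38 FPKM elsewhere. The 2 chains of type VIII collagen differed from each other. COL8A1 had 15.9, 10.8 and 4.97 FPKM in SLS and 6.29, 6.20 and 1.68 FPKM in LLS, while COL8A2 had 14.7 FPKM in ZD2, 4.71 FPKM in ZD8 and at most 2.56 FPKM in the remaining 4.

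COL4A1 and COL4A2 lie head to head on chromosome 11 and are transcribed away from each other. In the reference annotation of Sscrofa11.1, the build to which the authors mapped their reads, 133 bases separate the starts of their longest transcripts, at chr11:76997410-76997542. The stretch is shown because it holds the start region that the pair shares, read on the strand of COL4A2 with the motifs found in capitals.
COL4A1-COL4A2: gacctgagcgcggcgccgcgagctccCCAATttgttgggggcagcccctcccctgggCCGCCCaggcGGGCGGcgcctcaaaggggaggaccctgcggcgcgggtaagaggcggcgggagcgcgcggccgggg

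On both strands, GGGCGG was found 2 times and CCAAT 1 time. Of 29840 stretches of the same length before the starts of the genes of the table, 28.5% held a GGGCGG and 20.5% a CCAAT. The stretch was 78.9% G and C, against a median of 56.4% for those stretches. The annotated ends of the 2 genes overlap by 525 bases here because another COL4A2 transcript starts inside COL4A1, and for that transcript the stretch is intronic. Whether the counting used strand is not given in the sources used here, so reads in this overlap cannot be assigned with certainty. COL4A3 and COL4A4 on chromosome 15 are also head to head and overlap by 663 bases.

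Among the other collagens, the beaded filament and FACIT types had orders of their own. COL6A2 had 142, 69.4 and 122 FPKM in SLS and 53.9, 113 and 224 FPKM in LLS, and COL6A3 had 147, 105 and 103 FPKM in SLS and 87.8, 128 and 222 FPKM in LLS. Type VI collagen forms beaded filaments around cells, and all 3 of its tested chains, COL6A5 included, were highest in ZD8, the ovary with the least fibrillar collagen. COL6A5 had 6.64 FPKM in ZD8 and between 1.17 and 3.03 FPKM elsewhere. COL12A1, a FACIT chain on the surface of type I fibrils, had 355, 131 and 168 FPKM in SLS and 81.5, 176 and 217 FPKM in LLS, so that ZD2 and ZD8 were the highest ovaries. COL14A1 and COL16A1, also FACIT chains, were highest in ZD2, with 89.4 and 79.5 FPKM against at most 53.8 and 35.2 FPKM in the other 5 ovaries.

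Both multiplexins were lowest in ZD8. COL15A1, which links basement membranes to the tissue around them, had 192, 200 and 127 FPKM in SLS and 250, 285 and 42.7 FPKM in LLS. Without ZD8 both LLS ovaries were above all 3 SLS ovaries, and the groups of 19.1% of all tested genes did not overlap. COL18A1, whose end fragment is the vessel inhibitor endostatin, had 94.0, 61.9 and 62.1 FPKM in SLS and 47.4, 91.3 and 39.4 FPKM in LLS. The transmembrane chain COL13A1 had 6.78, 6.05 and 5.72 FPKM in SLS and 7.71, 8.79 and 7.94 FPKM in LLS, and its groups did not overlap. The anchoring fibril chain COL7A1 had 2.60 FPKM in ZD8 and between 0.589 and 1.63 FPKM elsewhere. COL20A1 did not pass the filter and rested on 213 reads in ZD8 (1.57 FPKM) and on 0 to 36 reads in the other libraries. COL9A2, COL9A3, COL21A1 and COL26A1 had means between 1.21 and 4.85 FPKM. The other 8 members of this class that failed the filter (COL6A6, COL9A1, COL17A1, COL19A1, COL22A1, COL23A1, COL25A1 and COL28A1) had means between 0.00562 and 0.821 FPKM.

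The highest value of a tested collagen was a median of 4.61 times its lowest, against 2.39 for all 12260 tested genes. Without ZD8 these medians were 2.39 and 1.81, and without ZD2 they were 3.84 and 2.25. The SD of log2(FPKM + 1) within a group had a median of 0.492 in SLS and 0.721 in LLS for the collagens, and of 0.312 and 0.445 for all tested genes. Without ZD8 the median SD in LLS was 0.232 for the collagens and 0.178 for all tested genes, and without ZD2 that in SLS was 0.287 and 0.279. COL26A1 and COL8A2 spanned the widest ranges, 18.3- and 18.5-fold. COL4A6 and COL13A1 spanned the narrowest over all 6 ovaries, 1.51- and 1.54-fold. Without ZD8, COL4A2 was narrower than both at 1.29-fold, with COL4A6 at 1.40-fold and COL13A1 at 1.54-fold.

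The most values far from the median were in 2 ovaries, each with other collagens. ZD2 had the highest value for 14 of the 28 tested collagens, while it had the highest value for 10.7% of all tested genes. In ZD2, 9 collagens were more than 2-fold above their median of the 6 ovaries (COL1A1, COL1A2, COL5A1, COL8A1, COL8A2, COL9A3, COL12A1, COL16A1 and COL26A1), as were 0.783% of all tested genes. ZD8 had the lowest value for 13 of the 28, among them 6 of the 8 fibrillar and 5 of the 6 network chains, and the highest for 8. Of all tested genes, ZD8 was lowest in 26.3% and highest in 44.6%. In ZD8, 8 collagens were more than 2-fold below their median (COL3A1, COL4A1, COL4A2, COL4A5, COL5A2, COL5A3, COL8A1 and COL15A1), against 12.2% of all tested genes, and 6 were more than 2-fold above it (COL6A5, COL7A1, COL8A2, COL9A2, COL26A1 and COL27A1), against 20%. In ZD5, 4 collagens were more than 2-fold below their median (COL6A2, COL9A3, COL12A1 and COL26A1), against 2.36% of all tested genes. Such distances were found for 2 collagens in ZD3 (COL8A2 and COL26A1, both low), for 2 in ZD12 (COL9A2 high and COL9A3 low) and for 0 in ZD7. ZD2 is an SLS ovary and ZD8 an LLS ovary, so the low LLS and the high SLS means of many collagens rest on them. These 2 ovaries were singled out after the values were seen.

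**Figure D2:**
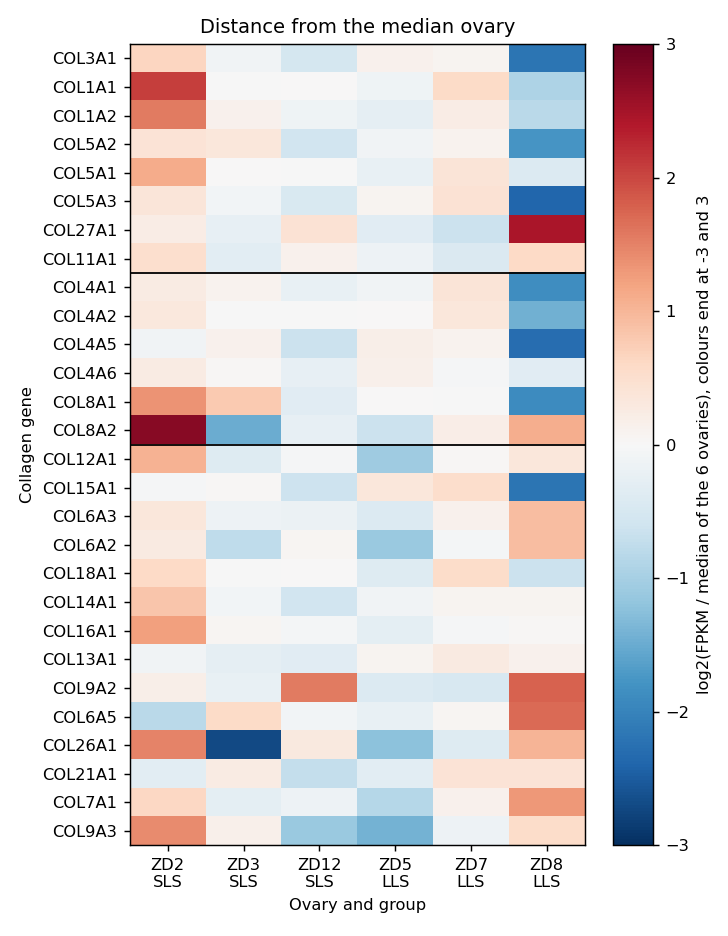
Each cell gives the log2 of the FPKM of a collagen gene over its median of the 6 ovaries, with ovaries in columns and the 28 tested collagens in rows, in the order fibrillar, network and other. The column of ZD2 is red for type I collagen and COL8A2, and the column of ZD8 is blue for COL3A1 and type IV collagen and red for COL27A1, type VI collagen and COL9A2.

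The makeup of the collagen RNA differed accordingly. COL1A1, COL1A2 and COL3A1 together gave 76.9% of all collagen FPKM in ZD2, 50.1% in ZD8 and from 63.9% to 67.7% in the remaining 4. COL6A2 and COL6A3 gave 17.3% in ZD8 and between 2.58% and 4.97% elsewhere. Non-fibrillar collagens outside the networks made up 33.8% in ZD8, with a range of 10% to 14.9% elsewhere.

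The collagen genes were proposed as genes of the ovarian stroma, and stromal fibroblast markers followed another order in part of the ovaries. Of the 8 stromal fibroblast markers (among them PDGFRA, DCN and TCF21), 7 were highest in ZD8, where they summed to 2448 FPKM against a range of 627 to 1187 FPKM in the other 5 ovaries. The summed fibrillar collagens were lowest in the same ovary, at 1442 FPKM, and DCN carried most of the marker sum there (1854 FPKM). Without ZD8, ZD2 was highest in both sums (1187 FPKM of markers and 9079 FPKM of fibrillar collagens). ZD12 came next for the markers (1088 FPKM) but was lowest for the fibrillar collagens (3129 FPKM). The orders thus met in ZD2 and parted in ZD8 and ZD12, and the label of stroma is not used here. The 7 endothelial markers summed to 158 FPKM in ZD8 and to between 303 and 437 FPKM elsewhere, and 5 of them were lowest in ZD8, as were 6 of the 7 luteal markers. The 7 smooth muscle and pericyte markers summed to 1969 FPKM in ZD2 and to between 604 and 1227 FPKM elsewhere, with ACTA2 at 1098 and TAGLN at 619 FPKM in ZD2. Of the 7, 3 were highest in ZD2 and 3 in ZD8, among them MYH11 with 190.3 FPKM in ZD8 and 28.4 FPKM in ZD2. The surface epithelium markers summed to 51.7 FPKM in ZD2 and to between 4.05 and 23.2 FPKM in the others. KRT8, KRT18 and KRT19 carried the sum in ZD2, whereas LHX9 of the same list had 1.48 FPKM there and was highest in ZD8 at 5.68 FPKM. Theca markers (456 FPKM against 55.7 to 151 FPKM), oocyte markers (125 against 6.49 to 22.8 FPKM) and Schwann and nerve markers (41.2 against 5.39 to 13.6 FPKM) were highest in ZD8 by their sum. INSL3 (298 FPKM) and CYP17A1 (117 FPKM) carried the theca sum, whereas LHCGR of the same list was lowest in ZD8 at 10.37 FPKM. Granulosa markers were lowest in ZD8 by their sum (130 against 177 to 772 FPKM), which INHA carried (66.5 FPKM in ZD8), whereas 3 of the 6, FSHR, AMH and FOXL2, were highest in ZD8. The 6 macrophage and T cell markers summed to between 29.9 and 50.9 FPKM, and 5 of them were highest in ZD8 while CD14 was lowest there. Several of these markers therefore moved with the collagens in ZD2 and ZD8, and their part in the collagen values was not tested.

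Ratios of chains within an ovary do not depend on the scaling of the library. COL1A1 to COL1A2 was 1.26, 0.804 and 0.976 in SLS and 0.9748, 1.11 and 0.810 in LLS, although the level of COL1A1 itself spanned 7.96-fold. COL4A1 to COL4A2 was 1.09, 1.22 and 0.977 in SLS and 1.04, 1.17 and 0.843 in LLS. Each of these pairs builds a shared molecule, and in both the ratio varied less than the levels, including in ZD8. COL3A1 to COL1A1 was less even, with 1.07, 2.74 and 1.98 in SLS and 3.48, 2.09 and 1.20 in LLS. Both ovaries with the lowest ratio, ZD2 and ZD8, lay at opposite ends of the type I level. COL5A1 to COL5A2 was 0.421, 0.204 and 0.383 in SLS and 0.239, 0.311 and 0.653 in LLS. These chains also belong to the same collagen type, so not every such pair had an even ratio.

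The groups did not differ by more than the spread between ovaries in any of these 4 ratios. Exact two-sided permutation p-values were 0.9, 0.6, 0.7 and 0.9 in the order given, where 3 ovaries against 3 cannot go below 0.1. With 9 ratios compared, the adjusted values are no smaller. Another 5 ratios were added after the data were seen. COL4A5 to COL4A1 stayed between 0.154 and 0.253 in all 6 ovaries, as both chains were low in ZD8. COL4A5 to COL4A6 was between 3.62 and 5.19 in 5 ovaries and 1.25 in ZD8, and COL12A1 to COL1A1 was between 0.118 and 0.234 in 5 ovaries and 0.576 in ZD8. COL6A3 to COL6A2 lay between 0.841 and 1.63 and COL5A2 to COL1A1 between 0.103 and 0.421. Exact permutation tests of these 5 between the groups gave p-values from 0.6 to 0.9.

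**Figure D3:**
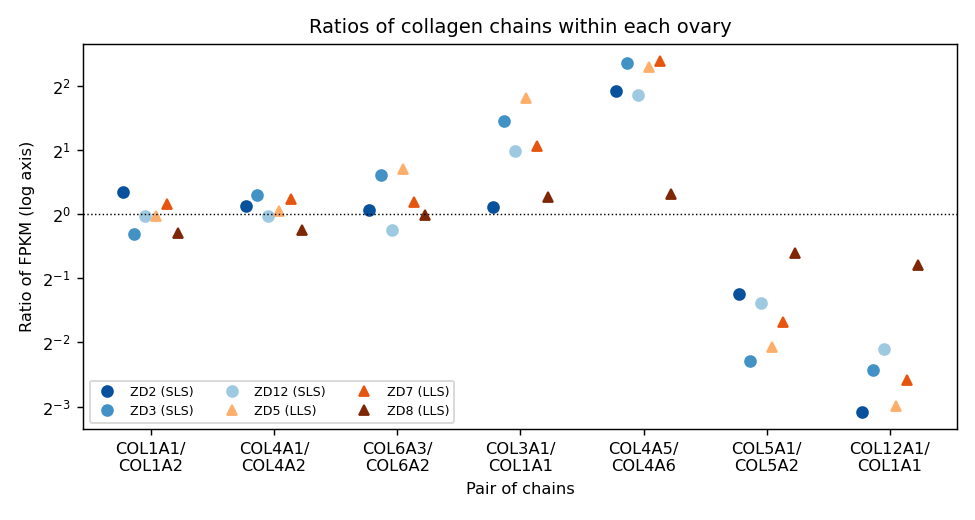
Ratio of FPKM of pairs of collagen chains within each ovary on a log2 axis, with 1 point for each ovary (circles SLS, triangles LLS) and a dotted line at 1. The pairs COL1A1/COL1A2 and COL4A1/COL4A2 stay close to 1 in all 6 ovaries, and ZD8 lies apart for COL4A5/COL4A6 and COL12A1/COL1A1.

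The contrast of litter size asks whether ovaries of prolific sows carry other levels of collagen RNA. Summed over all collagens, expression was 11180, 5423 and 4520 FPKM in SLS and 5285, 6505 and 2581 FPKM in LLS, a difference of -0.54 on the log2 scale (LLS against SLS, exact permutation p = 0.5). Fibrillar collagens summed to 9079, 3912 and 3129 FPKM in SLS and to 3874, 4582 and 1442 FPKM in LLS (log2 difference -0.71, exact permutation p = 0.5). Network collagens summed to 982, 843 and 719 FPKM in SLS and to 800, 1024 and 267 FPKM in LLS (log2 difference -0.48, exact permutation p = 0.7). The other collagens summed to 1123, 669 and 672 FPKM in SLS and to 611, 899 and 872 FPKM in LLS (log2 difference -0.02, exact permutation p = 1). In each class the groups overlapped. The difference over all collagens was -0.15 without ZD8 and also without ZD2. The fibrillar difference was -0.19 without ZD8 and -0.25 without ZD2. Leaving out ZD8 turned the network difference to 0.11, and leaving out ZD2 turned that of the other collagens to 0.22.

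A gene was called where limma on log2(FPKM + 1) gave an adjusted p below 0.05 with a log2 fold change beyond 1 in either direction. Between LLS and SLS this held for 0 of 28 collagens and for 0% of all 12260 tested genes. At an unadjusted p under 0.05 there were 0 of 28 collagens, beside 1.76% of all tested genes. By edgeR and DESeq2 on the reads recovered from the FPKM, 0 of 28 collagens were called, where edgeR called 0% and DESeq2 called 0.163% of 12245 genes. Without ZD8, limma called 0.171% of all tested genes and put 5.88% at an unadjusted p under 0.05, and in both cases 0 of 28 collagens were among them. The groups did not overlap for 1 of 28 collagens, COL13A1, beside 5.12% of all tested genes, and for 0 of 28 after median centring, beside 5.5%. Its LLS mean was 8.15 ± 0.57 FPKM and its SLS mean 6.18 ± 0.54 FPKM (SD, n = 3), a log2 fold change of 0.35 ± 0.25 (SE) with a limma adjusted p of 0.999.

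The interval of each fold change was wide, so the test did not show the groups to be alike. COL1A1 averaged 1477 ± 1321 FPKM in SLS and 695 ± 342 FPKM in LLS (SD, n = 3), a log2 fold change of -0.85 with a 95% confidence interval from -2.60 to 0.89. Its fold change was -0.16 without ZD2 and -0.48 without ZD8. For COL3A1 it was -0.66 (95% confidence interval -2.68 to 1.36) and 0.11 without ZD8. COL15A1 went from -0.22 with all ovaries to 0.65 without ZD8, which gave a limma adjusted p of 0.859. COL8A1 had the smallest unadjusted p of the 28 (0.080, limma adjusted p 0.999) and was picked out after its values were seen. Its log2 fold change was -1.02 (95% confidence interval -2.20 to 0.15), and it was -0.55 without ZD8 and -0.69 without ZD2.

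By sign alone, 21 of the 28 tested collagens were lower in LLS, with a median log2 fold change of -0.26 against 0.02 for all tested genes, of which 47.4% were lower. Lower in LLS were 7 of 8 fibrillar, 6 of 6 network and 8 of 14 other chains. Without ZD8, 19 of 28 were lower in LLS, with a median of -0.17 against -0.10 for all tested genes, of which 66% were lower. Of the 6 network chains 2 were then lower. Without ZD2, 15 of 28 were lower, with a median of -0.06 against -0.02 and 53.3% of all tested genes. The direction of the network chains thus rested on ZD8. With array weights, which set the weight of each ovary by its fit, 16 of 28 collagens were lower, beside 66.3% of all tested genes, so that the share of lower collagens was then below that of all genes.

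**Figure D4:**
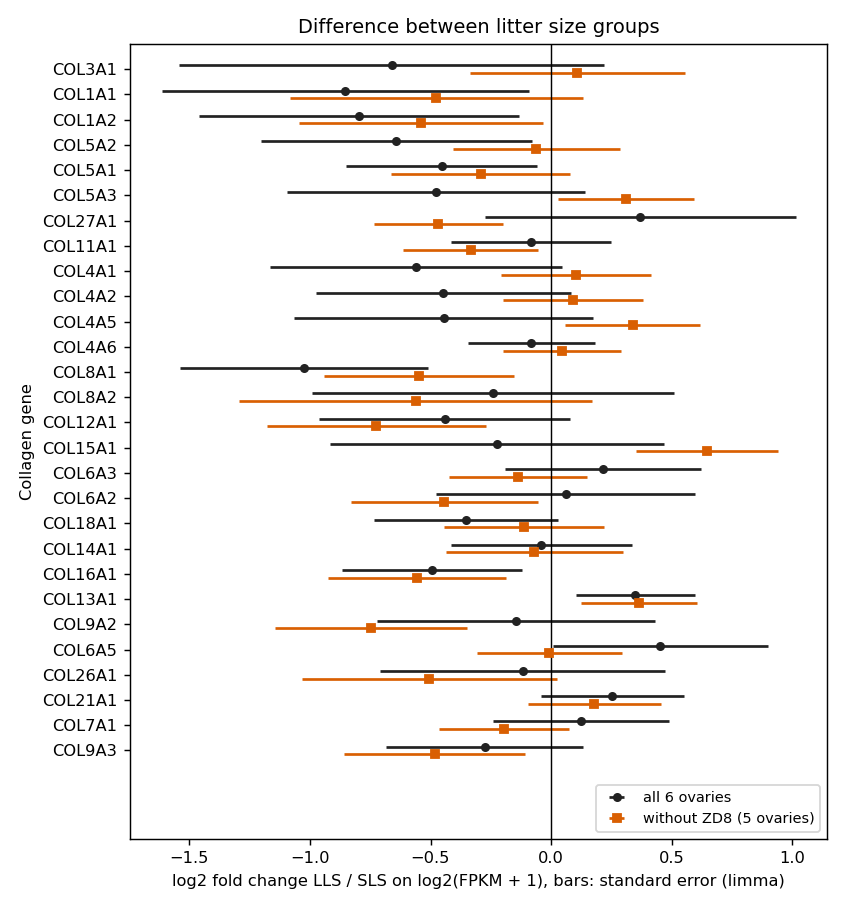
Log2 fold change of LLS over SLS for the 28 tested collagens from limma on log2(FPKM + 1), with bars for the standard error, once with all 6 ovaries (black) and once without ZD8 (orange). Without ZD8, COL3A1, COL4A1, COL4A2, COL4A5, COL4A6, COL5A3 and COL15A1 move from below to above 0, and COL6A2, COL6A3, COL6A5, COL7A1 and COL27A1 from above to below it.

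Proteins that make, trim, bind and sense collagen were taken from 6 lists, of which 86 genes were in the table and 78 were tested. Calls by limma numbered 0 of 78, while 4 genes reached an unadjusted p below 0.05, beside 1.76% of all tested genes. P3H2, which hydroxylates prolines mainly of basement membrane collagen, had 18.97, 19.04 and 16.06 FPKM in SLS and 32.4, 34.5 and 33.0 FPKM in LLS (log2 fold change 0.85 ± 0.24 SE, limma adjusted p 0.999). LOXL2, an enzyme that cross-links collagen, had 33.3, 17.8 and 16.1 FPKM in SLS and 6.73, 13.1 and 3.48 FPKM in LLS (log2 fold change -1.50 ± 0.46 SE, limma adjusted p 0.999). DPT, a fibril-binding protein, had 1.70, 1.08 and 1.78 FPKM in SLS and 2.80, 2.56 and 11.03 FPKM in LLS. Its log2 fold change was 1.13 with all ovaries (limma unadjusted p 0.045) and 0.56 without ZD8 (0.053). TGFB3, a growth factor of the family that drives collagen genes, had between 10.09 and 12.02 FPKM in the SLS ovaries and 4.22, 8.26 and 7.21 FPKM in those of LLS. In these 4 genes the groups did not overlap, with 2 higher and 2 lower in LLS. With YBX1, 5 of the 78 had groups that did not overlap, near the 5.12% of all tested genes. Without ZD8, 12 of the 78 had an unadjusted p under 0.05, beside 5.88% of all tested genes, and 0 were called, beside 0.171%.

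By list, and beside the same 1.76% of all tested genes, limma put 1 of 19 genes for folding and modification in the endoplasmic reticulum at an unadjusted p under 0.05, 1 of 13 for trimming and cross-linking, 1 of 14 fibril-binding proteins, 0 of 12 basement membrane partners, 0 of 7 receptors and 1 of 13 genes that control collagen transcription. The most abundant gene of each list, and DCN beside SPARC, were taken after the values were seen and do not stand for their lists. SPARC, a collagen-binding protein, had 1829, 851 and 793 FPKM in SLS and 710, 983 and 453 FPKM in LLS, and was highest in ZD2 and lowest in ZD8 as was COL1A1. The fibril-binding list itself summed to 3416 FPKM in ZD2, 2804 FPKM in ZD8 and at most 1968 FPKM elsewhere, with 6 of its 14 tested genes highest in ZD8. DCN, the proteoglycan decorin that binds fibrils, had 859, 563 and 754 FPKM in SLS and 363, 453 and 1854 FPKM in LLS. SERPINH1, the chaperone of the collagen chains, had 874, 451 and 700 FPKM in SLS and 347, 545 and 362 FPKM in LLS. HSPG2, the basement membrane proteoglycan perlecan, had 376, 244 and 237 FPKM in SLS and 235, 340 and 160 FPKM in LLS. PCOLCE2, which helps to trim the ends of procollagen, had 137, 179 and 123 FPKM in SLS and 474, 298 and 6.53 FPKM in LLS, so that ZD5 and ZD7 were the highest and ZD8 the lowest ovaries. Its log2 fold change was -0.51 with all ovaries and 1.37 without ZD8 (limma adjusted p 0.175). The collagen receptor subunit ITGB1 lay between 43.4 and 101 FPKM, and YBX1 between 129 and 222 FPKM.

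The microRNAs of the miR-29 family are known repressors of collagen messengers and were measured in small RNA libraries of the same ovaries, in RPM, reads scaled to the size of the library. They are shown with the bases 2 to 8, the seed that pairs with a messenger, in capitals.
ssc-miR-29a-3p: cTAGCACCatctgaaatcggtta
ssc-miR-29b: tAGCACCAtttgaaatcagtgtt
ssc-miR-29c: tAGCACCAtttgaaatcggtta

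As listed in the table, ssc-miR-29a-3p starts 1 base earlier than the others, so that its bases 2 to 8 pair with GGTGCTA and those of miR-29b and miR-29c with TGGTGCT. On the messenger these letters overlap in 6 bases. In the 3′ UTR of the longest RefSeq transcript, TGGTGCT was found in 26 of 42 collagen genes (61.9%) and in 19 of the 28 tested (67.9%), against 12.7% of all 17941 genes of the table with such a region and 15% of those tested. Per kilobase of 3′ UTR, tested collagens held 0.876 matches and all tested genes 0.103. GGTGCTA was found in 50.0% of the tested collagens and 7.19% of all tested genes. Only the strand of the messenger was searched. Windows of 30 bases around the match are given for members of the main fibrils, the basement membrane and the beaded filament, with TGGTGCT in capitals.
COL1A1, chr12:26379573-26379602, minus strand: gggggaatcatTGGTGCTacatggaagtgg
COL1A2, chr9:74210077-74210106, plus strand: aagaatgtttaTGGTGCTaggagaatttga
COL3A1, chr15:93595648-93595677, plus strand: aaatgtctcaaTGGTGCTataataaataaa
COL5A2, chr15:93612209-93612238, minus strand: tcctttaatgaTGGTGCTaaaattccttct
COL4A1, chr11:76859556-76859585, minus strand: acatcacaacaTGGTGCTactccttccctt
COL4A2, chr11:77160884-77160913, plus strand: gagggccacttTGGTGCTtgttcttacctt
COL6A3, chr15:137012014-137012043, minus strand: gactatccataTGGTGCTaactgtgtctgt

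The match is followed by an A in 6 of these 7 windows, so that they also hold GGTGCTA, and COL4A2 is the exception. COL5A3 held the most matches of a collagen, 4 in 842 bases. COL5A1, COL12A1, COL14A1, COL16A1 and COL18A1 held none. A match of letters is a description and does not show that a microRNA acts there.

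The family did not separate the groups. ssc-miR-29a-3p had 4440, 6370 and 11125 RPM in SLS and 6466, 4488 and 10117 RPM in LLS. ssc-miR-29b had 200, 271 and 373 RPM in SLS and 314, 179 and 352 RPM in LLS, and ssc-miR-29c had 66.6, 119 and 179 RPM in SLS and 133, 57.9 and 168 RPM in LLS. All 3 were lowest in ZD2 and ZD7, which had the highest COL1A1, and highest in ZD12 and ZD8. COL3A1 was lowest in ZD8 and next lowest in ZD12. COL6A3 has a match and was highest in ZD8, and COL5A1, COL14A1 and COL16A1 have none and were highest in ZD2. Of the 19 tested collagens with a match, 8 were highest in ZD2 and 11 lowest in ZD8. Of the 9 without, 6 were highest in ZD2 and 2 lowest in ZD8. Among all tested genes, 10.7% were highest in ZD2 and 26.3% lowest in ZD8. A relation between the family and the collagens was not tested.

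**Figure D5:**
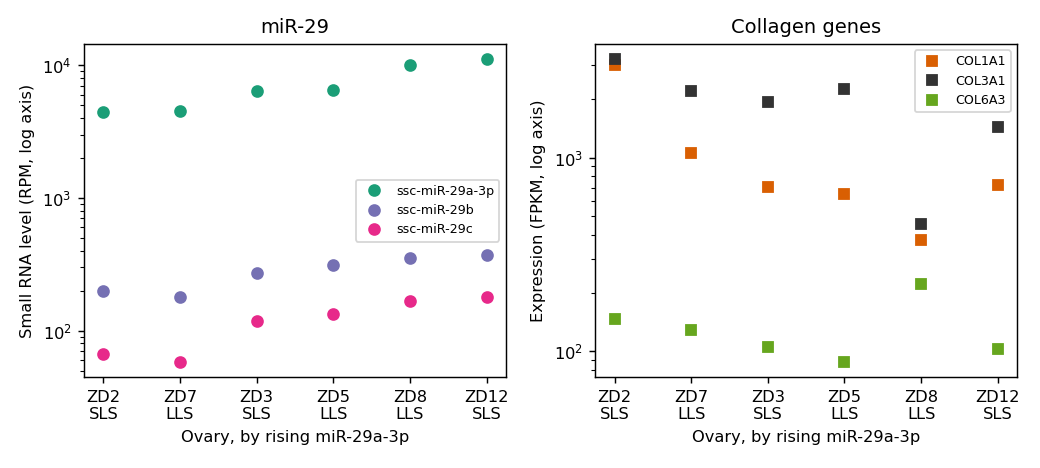
Left, RPM of ssc-miR-29a-3p, ssc-miR-29b and ssc-miR-29c on a log axis. Right, FPKM of COL1A1, COL3A1 and COL6A3 on a log axis, both with the 6 ovaries ordered by rising ssc-miR-29a-3p. ZD2 and ZD7 have the lowest miR-29 and the highest COL1A1, and COL6A3 is highest in ZD8, which has high miR-29.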

How the data were processed

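Ribosome-depleted total RNA and small RNA of each ovary were sequenced (1 library per ovary and kind, both tables naming the ovaries in their columns). The authors trimmed reads with NGSQCToolkit, mapped the RNA-seq reads to Sscrofa11.1 with HISAT2 and deposited FPKM values. The program that counted reads and its annotation are not given in the sources used here. The authors deposited miRNA values as RPM, under the name TPM, and all 2618 values above 0 gave whole reads (tolerance 0.001 reads). Whole reads were recovered from FPKM for 23477 of 23564 genes above 0 (99.6%, tolerance 0.001 reads).

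Genes with at least 1 FPKM in 3 libraries were tested by limma 3.58.1 (R 4.3.3) with a trended variance on log2(FPKM + 1), and p-values were adjusted by Benjamini-Hochberg over all 12260 genes. The fit was also run on simulated data, with shifts larger than any collagen fold change and less spread between libraries than these data. That run therefore cannot show whether shifts of the size seen here would be found. Fold changes on this scale understate low genes. Sums and ratios were compared by exact permutation tests over the ovaries. Confidence intervals were taken from the limma fold change and its standard error (scipy 1.17.1). edgeR 4.0.16 and DESeq2 1.42.0 on recovered reads, other scalings and leaving out each ovary were alternatives. Each p-value sets a group difference against the spread between sows, 3 against 3 unless an ovary was left out. For limma, the variance of a gene also draws on all other tested genes.

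Collagens with a mean of at least 10 FPKM, and any gene of the lists with non-overlapping groups and an unadjusted p under 0.05, were named by rule, beside genes chosen for their values. The members, the 6 pathway lists, the 11 marker lists and the tests were chosen with earlier results of these data known. Sequences were read from the RefSeq annotation of Sscrofa11.1.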

Additional observations from a re-analysis of the deposited data

How the results depend on the processing

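No collagen was called under any of 8 other settings or with any ovary left out. The count at an unadjusted p under 0.05 was 1 of 28 with array weights (COL9A2), beside 10.2% of all tested genes, and 0 to 1 with an ovary left out (COL8A1 without ZD12), beside 0.824% to 5.88%. The count of collagens whose groups do not overlap was 0 with median centring (COL13A1 lost), beside 5.5% of all tested genes, and 1 to 5 with an ovary left out, beside 8.58% to 19.1%. Array weights gave ZD8 a weight of 0.135, against 0.597 to 2.27 for the other ovaries.

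With an ovary left out, the log2 difference of sums ranged from -0.86 to 0.11 for network and from -0.15 to 0.22 for other collagens, and that of all collagens from -0.81 to -0.15 and of fibrillar collagens from -1.03 to -0.19. The log2 difference of ratios ranged from -0.21 to 0.11 for COL1A1/COL1A2, -0.19 to 0.58 for COL3A1/COL1A1, -0.22 to 0.014 for COL4A1/COL4A2, -0.23 to 0.49 for COL5A1/COL5A2, -0.0475 to 0.39 for COL6A3/COL6A2, -0.73 to 0.30 for COL4A5/COL4A6, -0.12 to 0.24 for COL4A5/COL4A1, -0.31 to 0.71 for COL5A2/COL1A1 and -0.25 to 0.85 for COL12A1/COL1A1. Scaling to coding length multiplies a ratio by a constant and cannot change these differences.

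Of 19 collagens whose fold changes were followed, 8 kept their sign throughout. With array weights the sign reversed for COL3A1 (0.12), COL4A1 (0.10), COL4A2 (0.0415), COL5A2 (0.0477), COL15A1 (0.68), COL6A3 (-0.10), COL6A2 (-0.55), COL4A5 (0.40), COL14A1 (0.012), COL5A3 (0.30) and COL4A6 (0.0788). It also reversed for COL15A1 with edgeR (0.23) and DESeq2 (0.22) and for COL14A1 with quantile normalization (0.11). The cause was not tested. With an ovary left out, fold changes ranged from -1.05 to 0.11 for COL3A1, -1.02 to 0.10 for COL4A1, -0.80 to 0.0907 for COL4A2, -0.71 to 0.65 for COL15A1, -0.14 to 0.53 for COL6A3, -0.44 to 0.57 for COL6A2, -0.86 to 0.34 for COL4A5, -0.35 to 0.34 for COL14A1, -0.95 to 0.31 for COL5A3 and -0.20 to 0.0455 for COL4A6.

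The ratios of COL6A1 to other type VI chains were not run. No paired analysis was possible because the labels give the ovaries of the 2 groups no shared numbers. Depth limits what can be seen of the lowest members, such as COL9A1 and COL11A2 with at most 4 reads in a library.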
